A study of Homo sapiens with 9 samples.

Results

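The 36 genes described here code for the chaperones, folding enzymes, sensors and disposal factors by which a cell handles unfolded proteins. They were chosen by symbol, as 22 genes of the endoplasmic reticulum (ER) and 14 genes of the heat shock system: 11 cytosolic chaperones, the 2 subunits of the mitochondrial chaperonin and the heat shock factor *HSF1*. They are 36 of 27902 genes with values in the tables. RNA-seq was performed on DU145 cells, an established human prostate cancer cell line of epithelial origin, with a genotype given as WT in every group. The 9 libraries fall into 3 groups of 3: cells expressing the scrambled shRNA, cells expressing *FZD6* shRNA1 and cells expressing *FZD6* shRNA2. The shRNAs were delivered by lentiviral vectors, one of which the control cells carry as well. The comparison asks how loss of the Wnt receptor *FZD6* changes transcript levels, and the labels name no drug or heat treatment. The labels do not say whether the 3 libraries of a group came from separate cultures, so p-values measure the spread between these libraries, which may be technical.

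Proteins that enter the ER are folded by the Hsp70 chaperone BiP (*HSPA5*), the Hsp90 paralog GRP94 (*HSP90B1*), the lectin chaperones calnexin and calreticulin, and disulfide isomerases. When unfolded proteins accumulate there, the sensors IRE1 (*ERN1*), ATF6 and PERK set off the unfolded protein response: IRE1 splices the *XBP1* mRNA, ATF6 is cleaved to a transcription factor, and PERK slows translation while it favors translation of ATF4. The spliced XBP1 and cleaved ATF6 proteins raise transcription of ER chaperones and of ER-associated degradation (ERAD), which returns misfolded proteins to the cytosol for the proteasome. In the cytosol, HSF1 governs a separate program, the heat shock response, whose products include Hsp70, Hsp90 and their J-domain partners.

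Levels are given in FPKM, fragment numbers scaled by transcript length and by library size, which can be compared between genes. *FZD6*, the target of both shRNAs, was at 20.04 to 20.9 FPKM in the scramble libraries, at 9.47 to 10.2 with shRNA1 and at 7.69 to 8.79 with shRNA2. The mean of the 6 knockdown libraries was 43.7% of the scramble mean, and an exact two-sided permutation test over the 9 libraries gave p = 0.0119, the smallest p that 84 arrangements allow. Depth was estimated at 32.2 to 40.2 M fragments per library. Of the epithelial markers, *KRT8* was at 230 FPKM in scramble cells and *EPCAM* at 17.7, whereas the prostate luminal markers *KLK2* and *KLK3* were listed at 0. Replicate 2 of shRNA2 stood apart from the other 5 knockdown libraries in 5 of the 34 genes tested (*DNAJB9*, *DNAJC3*, *HSP90AA1*, *HSPB1* and *HSF1*), and values without it are given beside the results it touches. The share of all genes in which it stood apart was not computed.

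The promoters of these genes hold short DNA motifs by which the pathways are usually recognized, and a few are shown because each motif was found either in ER genes or in cytosolic genes but not in both. Promoters are the 250 bases before and 50 bases after the start of each gene in RefSeq, build GRCh38.p14, which listed 34 of the 36 genes. Both strands were searched for the ER stress response element (ERSE, CCAAT and CCACG with 9 bases of any kind between them) and its shorter form (ERSE-II, ATTGG and CCACG with 1 base between them). The same was done for the unfolded protein response element TGACGTGG (UPRE) and a heat shock element of 3 units, TTC, GAA and TTC, with 2 bases of any kind between units. ERSE was found in 6 of 21 ER genes (*HSPA5*, *HSP90B1*, *CALR*, *CANX*, *CRELD2* and *XBP1*), in 0 of 13 cytosolic and mitochondrial genes and in 27 of all 35116 promoters (0.0769%). ERSE-II was found in *SDF2L1*, *HYOU1* and *HERPUD1*, in no cytosolic or mitochondrial gene, and in 0.0541% of all promoters. The UPRE occurred in *HYOU1*, where it overlaps an ERSE-II, and in 0.729% of all promoters. The heat shock element was found in *HSPA8* and *DNAJA1*, in no ER gene and in 0.49% of all promoters. The genes had been picked as known members of these pathways, so the shares describe the choice, and a match is neither a measured site nor a cause. Below, each run of 30 bases is written 5′ to 3′ on the strand of the gene, with the motif in either orientation in capitals.

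*HSPA5*, ERSE, chr9:125241385-125241414, minus strand: cttcaCCAATCGGCGGCCTCCACGacgggg
*HSP90B1*, distal ERSE, chr12:103930211-103930240, plus strand: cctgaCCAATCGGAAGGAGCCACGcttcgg
*HSP90B1*, proximal ERSE, reversed, chr12:103930316-103930345, plus strand: gggtgCGTGGTGCGGCGCGATTGGtgggtt
*XBP1*, ERSE, chr22:28800597-28800626, minus strand: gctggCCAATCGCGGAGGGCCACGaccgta
*HYOU1*, proximal ERSE-II, reversed, chr11:119057264-119057293, minus strand: ggcctgggaCGTGGTCCAATgagtacgcgc
*HERPUD1*, ERSE-II, chr16:56932016-56932045, plus strand: cggacgccgATTGGGCCACGttgggagagt
*HSPA8*, distal heat shock element, reversed, chr11:123062345-123062374, minus strand: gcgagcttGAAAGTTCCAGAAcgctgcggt
*HSPA8*, proximal heat shock element, chr11:123062170-123062199, minus strand: cgggccccTTCTGGAAGGTTCtaagatagg

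In *HSPA5* the ERSE begins 66 bases before the gene start, and in *XBP1* 52 bases before it. The proximal heat shock element of *HSPA8* begins 55 bases before the start used for its promoter. Both *HSPA8* elements lie inside the span given for the gene below (123057489 to 123062462), so that start is not the upstream end of the span. The same holds for the ERSE of *CANX*, which is not shown. The genes with a motif did not share a direction: as described below, *HSP90B1* fell and *XBP1* rose although both hold an ERSE.

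In scramble cells the most abundant of the 36 genes were cytosolic. *HSP90AB1*, the constitutive cytosolic Hsp90, was at 1002 ± 8.07 FPKM (SD, n = 3), *HSPA8*, the constitutive Hsp70, at 684 ± 5.75, and *HSP90AA1*, the inducible Hsp90 isoform, at 664 ± 18.2. The most abundant ER genes were *CALR*, calreticulin, at 438 ± 17.3 FPKM, *P4HB*, protein disulfide isomerase, at 391 ± 4.86, and *HSPA5*, BiP, at 253 ± 3.40. The scramble libraries of *HSPA8* and *HSP90AA1* did not overlap, at 678 to 688 and 643 to 676 FPKM, but their means differed by about the SD of the latter. The lowest were *DNAJB9*, an ER co-chaperone of BiP, at 4.00 FPKM, *EDEM1*, a mannosidase-like ERAD factor, at 3.89, and the sensor gene *ERN1* at 0.967. *ERN1* had a mean under 1 FPKM and was not tested. *CANX*, calnexin, was listed at 158 to 176 FPKM over the 9 libraries, but Cufflinks marked at least 1 of its entries as failed, so it was not tested either. The other 34 genes, 20 of the ER and 14 of the cytosol and mitochondria, passed the filter on low values, which was set on the mean of all libraries.

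When the 6 knockdown libraries were compared with the 3 scramble libraries by limma, 7 of the 34 genes (20.6%) passed an adjusted p of 0.05. Of all 12509 genes tested, 21.6% passed, so the number of chaperone genes called is close to the background. *DNAJB1*, *HSPA8*, *XBP1* and *HSP90AB1* rose, and *EDEM1*, *HSP90B1* and *PDIA4* fell. Of all genes, 14.4% rose and 7.23% fell, against 11.8% and 8.82% of the 34. In bulk RNA, a change in all cells and a larger change in some of them cannot be told apart. Changes were small: the largest, in *EDEM1*, was −0.29 on the log2(FPKM + 1) scale, which understates changes of low genes. Only *EDEM1* met the criteria of the study (at least 1.2-fold with an unadjusted p below 0.01), which 3.33% of all genes met. Here and below, these thresholds were applied to limma's p, not to that of the study's own test. The fold was taken on the log2(FPKM + 1) scale. The calls depended on the number of control libraries, since without scramble replicate 1, 2 or 3 in turn 2 genes were called each time, and these were *DNAJB1* and *EDEM1*. The share of all genes called also fell in these fits, to 10.8%, 9.77% and 13.4%. Without replicate 2 of shRNA2, 7 genes were called, 4 higher and 3 lower, where 26.8% of all genes were called.

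**Figure D1:**
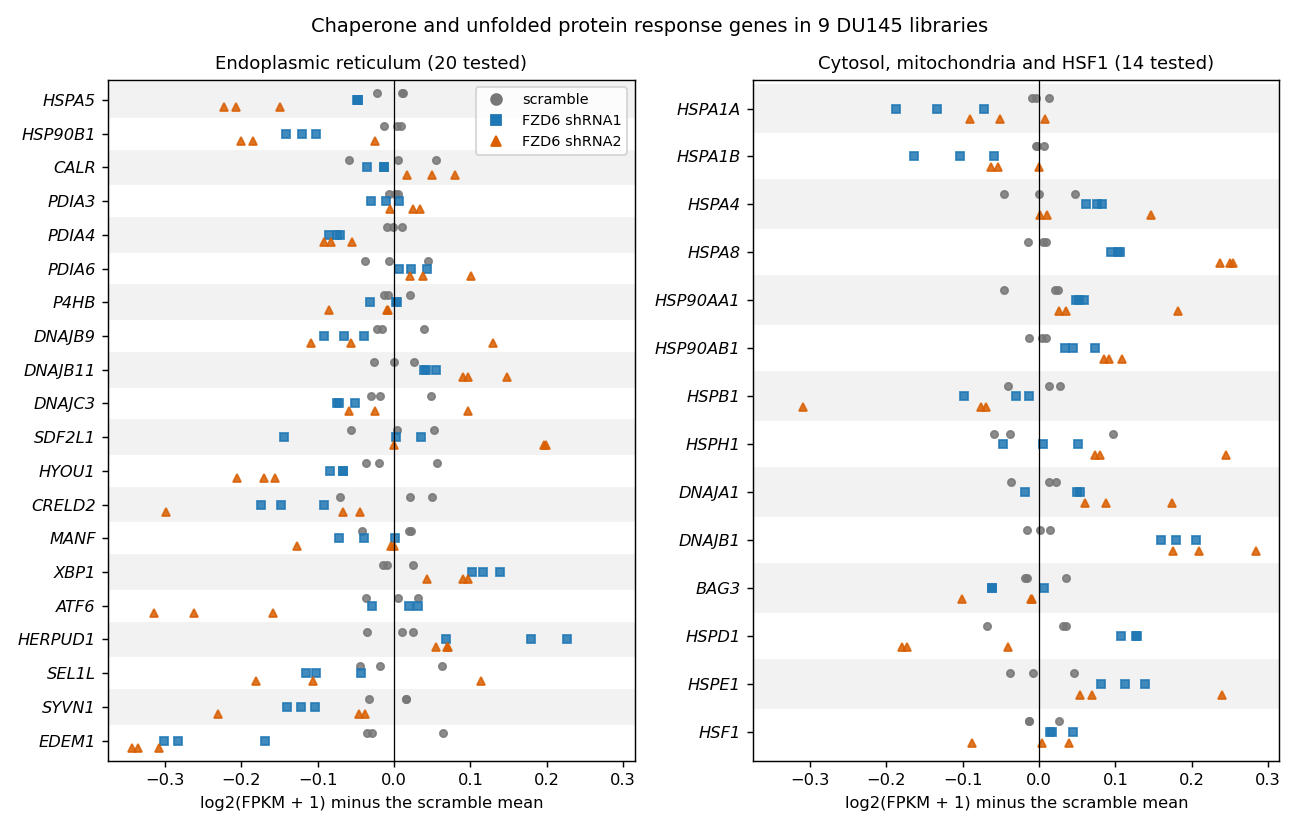
Each point is one library of one gene, as log2(FPKM + 1) minus the mean of the scramble libraries; the left panel shows the 20 ER genes tested and the right panel the 14 cytosolic and mitochondrial genes with *HSF1*. All 6 knockdown libraries of *EDEM1* lie below scramble and all 6 of *DNAJB1* above it, whereas the libraries of most genes lie within 0.2 of 0 and overlap the scramble libraries.

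Of the 15 ER chaperones and folding enzymes, 14 were tested, and 2 fell: *HSP90B1* and *PDIA4*. *HSP90B1* (chromosome 12, 103930410 to 103947926, GRCh38) codes for GRP94, which folds integrins and Toll-like receptors among other clients. Its scramble libraries were at 189, 189.7 and 187 FPKM, the shRNA1 libraries at 171, 173 and 176, and the shRNA2 libraries at 164, 185 and 166. All knockdown libraries lay below all scramble libraries, with replicate 2 of shRNA2 nearest to them. The change was −0.13 ± 0.037 (log2, SE, adjusted p = 0.0381 by limma), and −0.15 (adjusted p = 0.00628) without that library. Leaving out any other single library ended the call, with adjusted p between 0.0556 and 0.126.

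*PDIA4* (chromosome 7, 149003051 to 149028505) codes for ERp72, a disulfide isomerase of the ER. Its levels were 133, 132 and 131 FPKM in scramble cells, 126, 125 and 125 with shRNA1, and 127, 124 and 125 with shRNA2. All knockdown libraries lay below all scramble libraries. The libraries of the shRNAs overlapped each other, with means of 125.2 FPKM with shRNA1 and 125.3 with shRNA2. The fall was −0.076 ± 0.018 (log2, SE, adjusted p = 0.0173 by limma). Without scramble replicate 1, 2 or 3 the adjusted p was 0.0774, 0.0694 and 0.0517.

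The other 12 genes of this class did not pass the test in the pooled comparison. *HYOU1*, an ER relative of Hsp110 that acts as a nucleotide exchange factor of BiP, was at 80.9 to 86.3 FPKM in scramble cells and at 71.8 to 79.2 in knockdown cells, all below scramble (log2 difference −0.13, adjusted p = 0.0511). *HSPA5* was also lower in every knockdown library than in every scramble library, at −0.12 (adjusted p = 0.103), and differed between the shRNAs as described below. *DNAJB11*, a co-chaperone of BiP, was higher in every knockdown library, at 0.079 (adjusted p = 0.0847). *CRELD2* and *MANF*, secreted proteins induced by ER stress, were at −0.14 (adjusted p = 0.115) and −0.040 (adjusted p = 0.435). *CALR*, *PDIA3*, *PDIA6*, *P4HB*, *DNAJB9*, *DNAJC3* and *SDF2L1* had differences between −0.039 and 0.049. For *DNAJB9* and *DNAJC3* the differences were −0.072 and −0.057 without replicate 2 of shRNA2. *CANX* had means of 165 FPKM in scramble cells, 163 with shRNA1 and 164 with shRNA2, which lie within the spread of its scramble libraries.

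Of the sensors and their effector, *XBP1* (chromosome 22, 28794560 to 28800569) rose. Its scramble libraries were at 87.5, 85.1 and 85.4 FPKM, the shRNA1 libraries at 94.8, 93.3 and 92.4 and the shRNA2 libraries at 88.6, 91.6 and 92.0. All knockdown libraries were above all scramble libraries, by 1.13 FPKM at the closest point. The change was 0.098 ± 0.025 (log2, SE, adjusted p = 0.0230 by limma), and 0.032 (adjusted p = 0.392) once the trend with transcript length described below was removed. Without scramble replicate 1, 2 or 3 the adjusted p of *XBP1* was 0.0504, 0.0984 and 0.0825. The tables list 2 transcripts of *XBP1*, the unspliced form and the form spliced by IRE1, which differ by a short intron. The spliced form held 0.0% to 0.44% of the FPKM of *XBP1* in scramble libraries, 0.01% to 0.08% with shRNA1 and 0.03% to 0.81% with shRNA2. The libraries overlapped, and nearly all of the rise of *XBP1* was assigned to the unspliced form. How the mapper treated this unusual intron is not given in the sources used here, so the low share is that of the tables and no measure of splicing by another assay. *ATF6* was at −0.12 (adjusted p = 0.333) in the pooled comparison and is described with the shRNAs. *ERN1* was at 0.967 ± 0.096 FPKM (SD, n = 3) in scramble cells, 0.824 with shRNA1 and 0.891 with shRNA2, and its libraries overlapped.

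Of the ERAD genes, *EDEM1* fell, with the largest change of the 34 genes tested. It lies on chromosome 3 (5187707 to 5219958, GRCh38). Its product takes misfolded glycoproteins out of the calnexin cycle. Scramble libraries were at 3.77, 4.11 and 3.79 FPKM, shRNA1 libraries at 3.34, 3.01 and 2.96, and shRNA2 libraries at 2.85, 2.94 and 2.87. The groups did not overlap, and the fall was −0.29 ± 0.046 (log2, SE, adjusted p = 0.00421 by limma). It passed the test in every alternative in which it was tested. *SYVN1*, the ubiquitin ligase HRD1, was also lower in every knockdown library, at −0.11 (adjusted p = 0.0880). *SEL1L*, its membrane adaptor, was at −0.072 (adjusted p = 0.421) with overlapping groups. *HERPUD1*, an ERAD scaffold, went the other way: its scramble libraries were at 15.2, 15.8 and 15.9 FPKM and its knockdown libraries at 16.3 to 18.5, all above them (log2 difference 0.11, adjusted p = 0.0995).

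**Figure D2:**
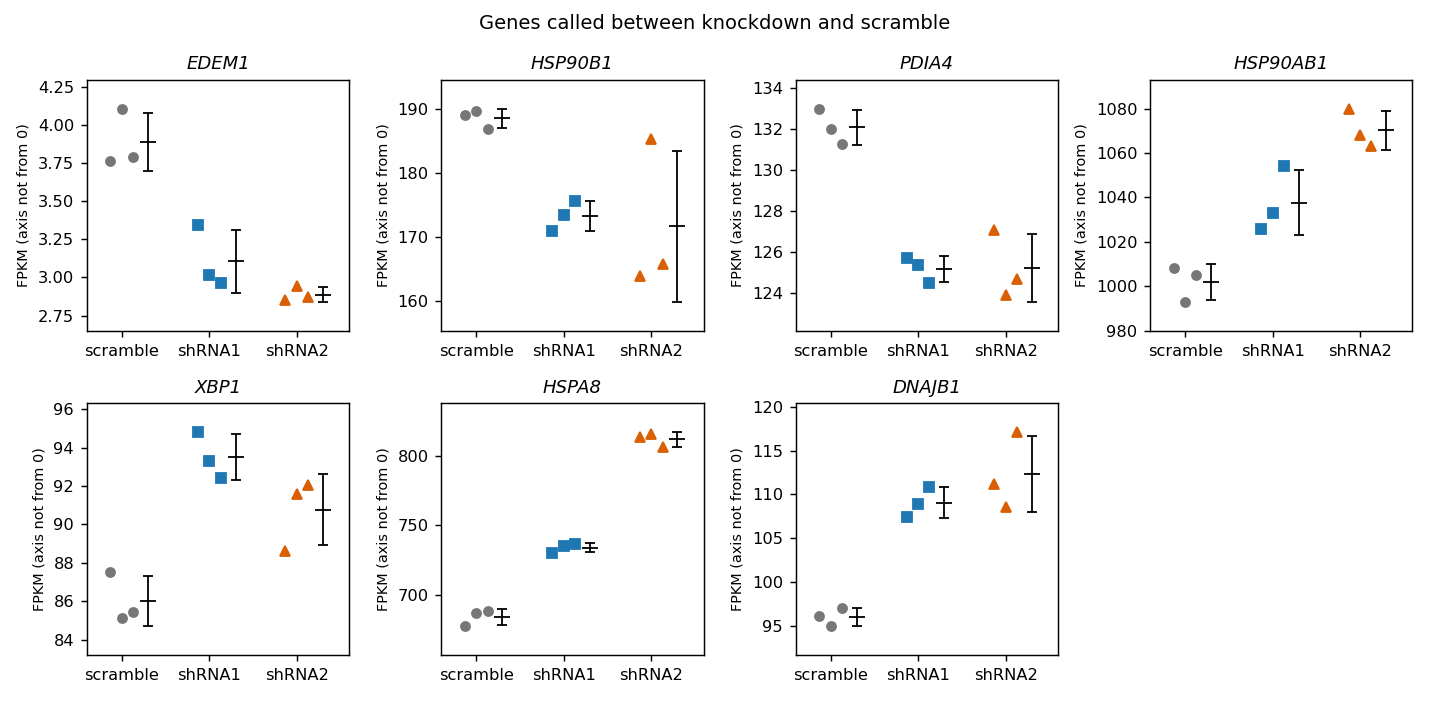
FPKM per library of the 7 genes called between knockdown and scramble, with the mean and SD of each group (n = 3) as a bar to the right of the points; axes do not start at 0. *EDEM1*, *HSP90B1* and *PDIA4* fell, and *HSP90AB1*, *XBP1*, *HSPA8* and *DNAJB1* rose, with no overlap between scramble and knockdown libraries in any of them.

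Among the 11 cytosolic chaperones, *DNAJB1*, *HSPA8* and *HSP90AB1* rose and none fell in the pooled comparison. *DNAJB1* (chromosome 19, 14514769 to 14560391) codes for Hsp40, the J-domain partner that loads clients on Hsp70 and a common readout of HSF1. It was at 96.1, 94.96 and 97.0 FPKM in scramble cells, 107, 109 and 111 with shRNA1, and 111, 109 and 117 with shRNA2. The lowest knockdown library was 10.4 FPKM above the highest scramble library. The rise was 0.20 ± 0.029 (log2, SE, adjusted p = 0.00260 by limma), and it passed the test in 23 of 23 alternatives.

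*HSPA8* (chromosome 11, 123057489 to 123062462) codes for Hsc70, the constitutive Hsp70 that also uncoats clathrin vesicles. Scramble libraries were at 678, 687 and 688 FPKM, shRNA1 libraries at 730.1, 735 and 737, and shRNA2 libraries at 814, 816 and 806. The 3 groups formed 3 separate levels. The pooled rise was 0.17 ± 0.045 (log2, SE, adjusted p = 0.0257 by limma). Without scramble replicate 1, 2 or 3 the adjusted p was 0.0938, 0.0839 and 0.0715, and it was 0.0535 with no filter on low values. The difference was 0.13 (adjusted p = 0.0895) with the trend with transcript length removed and 0.022 (adjusted p = 0.744) under quantile normalization.

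*HSP90AB1* (chromosome 6, 44246194 to 44253883) was at 1008, 993 and 1005 FPKM in scramble cells, at 1026, 1033 and 1054 with shRNA1 and at 1080.0, 1068 and 1063 with shRNA2. No library overlapped with scramble, but the rise was only 0.073 ± 0.022 (log2, SE, adjusted p = 0.0429 by limma). It turned to −0.058 (adjusted p = 0.174) under quantile normalization and passed the test in 6 of 23 alternatives. Without scramble replicate 1, 2 or 3, shRNA1 replicate 2 or 3, or shRNA2 replicate 1 or 3, its adjusted p was 0.0525 to 0.157.

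The inducible Hsp70 genes did not follow *HSPA8*. *HSPA1A* was at 73.6 to 74.7 FPKM in scramble cells and at 65.0 to 74.5 in knockdown cells, and *HSPA1B* differed by −0.074 (adjusted p = 0.151) against −0.088 (adjusted p = 0.145) for *HSPA1A*. These neighbours on chromosome 6 are nearly identical, and each value is a sum over 5 entries of 12.7 to 15.5 FPKM for *HSPA1A* and a like number for *HSPA1B*, 4 of them on alternate contigs. How reads were divided between them is uncertain, and they should be read as 1 measurement. *HSP90AA1* was at 0.067 (adjusted p = 0.224), and at 0.044 without replicate 2 of shRNA2, which had 753 FPKM against 676 to 692 in the other knockdown libraries. *HSPB1*, the small heat shock protein Hsp27, was at −0.099 (adjusted p = 0.271), and at −0.057 without the same library. *HSPA4* and *HSPH1*, which exchange nucleotides on Hsp70, were at 0.063 and 0.068, *DNAJA1* at 0.068 and the co-chaperone *BAG3* at −0.040, none of them past the test. *HSF1* was at 49.5 FPKM in scramble cells, 50.4 with shRNA1 and 49.1 with shRNA2 (log2 difference 0.005, adjusted p = 0.924, and 0.024 without replicate 2 of shRNA2). *HSPA8*, *HSP90AA1*, *HSP90AB1*, *HSPD1* and *HSPE1* have processed pseudogenes in the genome, to which reads may have been lost or from which they may have been gained.

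The shRNAs were also compared with scramble one by one and with each other in a model with 3 groups. With shRNA1, 8 of the 34 genes passed the test, 4 higher and 4 lower, against a background of 20% of all genes (12.8% higher and 7.19% lower). They were *XBP1*, *HERPUD1*, *HSPA8* and *DNAJB1*, which rose, and *PDIA4*, *EDEM1*, *HSPA1A* and *HSPA1B*, which fell. Summed as 1 gene, *HSPA1A* and *HSPA1B* were at −0.12 with shRNA1 (adjusted p = 0.0385). With shRNA2, 10 passed, 5 higher and 5 lower, against a background of 27.4% (16% higher and 11.4% lower). *DNAJB11*, *XBP1*, *HSPA8*, *HSP90AB1* and *DNAJB1* rose, and *HSPA5*, *PDIA4*, *HYOU1*, *ATF6* and *EDEM1* fell. Both comparisons use the same scramble libraries, so they are not independent of each other. Under the criteria of the study 0 genes were called with shRNA1 (3.9% of all genes) and 1 with shRNA2 (6.32%). The shRNA1 count is the less steady one. It was 3 or 4 without a scramble library (9.67% to 13.9% of all genes) and 4 or 5 without an shRNA1 library (9.51% to 11.1%). It was 12 without replicate 2 of shRNA2 (29.5%), which enters through the shared estimate of spread. The call of *XBP1* with shRNA2 had an adjusted p of 0.0666 without that library.

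Compared directly, shRNA2 and shRNA1 differed in 4 of the 34 genes (11.8%), where 7.02% of all genes differed (1.97% higher and 5.05% lower with shRNA2). *HSPA8* was higher with shRNA2, and *HSPA5*, *ATF6* and *HSPD1* were lower. The libraries of the shRNAs did not overlap in 12 of the 34 genes (35.3%), against 26.4% of all genes. Without shRNA1 replicate 1, 2 or 3, the number of genes called was 2, 1 and 2, where 3.3%, 2.99% and 3.52% of all genes were called. It was 0 under the criteria of the study, which 2.85% of all genes met. In *HSPA5* (chromosome 9, 125234853 to 125241343) the shRNA1 libraries were at 244.5, 244.2 and 244.5 FPKM and the shRNA2 libraries at 219, 228 and 216, below scramble at 249, 255 and 255. BiP mRNA was therefore lower with shRNA2 by −0.15 ± 0.024 (log2, SE, adjusted p = 0.0122 by limma) than with shRNA1. The change from scramble was −0.048 (adjusted p = 0.210) with shRNA1 and −0.19 (adjusted p = 0.00159) with shRNA2. Without shRNA1 replicate 1, 2 or 3 the difference in *HSPA5* had an adjusted p of 0.0549, 0.0562 and 0.0530.

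*ATF6* (chromosome 1, 161766320 to 161964070) showed a change with shRNA2 alone in the separate tests, and the direct test bore on that difference. It was at 8.25, 8.08 and 7.82 FPKM in scramble cells, at 7.87, 8.25 and 8.17 with shRNA1 and at 6.55, 7.11 and 6.28 with shRNA2. The shRNA1 libraries overlapped scramble, and the shRNA2 libraries lay below both groups. The difference between shRNAs was −0.25 ± 0.043 (log2, SE, adjusted p = 0.0124 by limma). Its adjusted p was 0.0579 without shRNA1 replicate 2, 0.0533 without replicate 3 and 0.063 when the shRNA libraries were fitted without the scramble libraries, a fit in which 3 of the 34 genes and 3.05% of all genes were called.

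*HSPD1* (chromosome 2, 197486584 to 197500274), which codes for the chaperonin Hsp60, differed between the shRNAs. Scramble libraries were at 133, 143 and 143 FPKM, shRNA1 libraries at 153, 153 and 151, and shRNA2 libraries at 123, 136 and 124. Neither shRNA passed against scramble, at 0.12 (adjusted p = 0.0875) and −0.13 (adjusted p = 0.0578), but the difference between them did, at −0.25 ± 0.044 (log2, SE, adjusted p = 0.0135 by limma). Without shRNA1 replicate 1 or 2 the adjusted p was 0.0573 and 0.0581. The pooled comparison averaged these to −0.005. *HSPE1*, which codes for the co-chaperonin Hsp10, starts 105 bases away on the opposite strand of chromosome 2. It was at 97.8, 99.9 and 104 FPKM in scramble cells, 109, 111 and 106 with shRNA1, and 104, 105 and 119 with shRNA2. The difference between shRNAs in *HSPE1* was 0.010 (adjusted p = 0.939), and no test compared it with that in *HSPD1*.

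**Figure D3:**
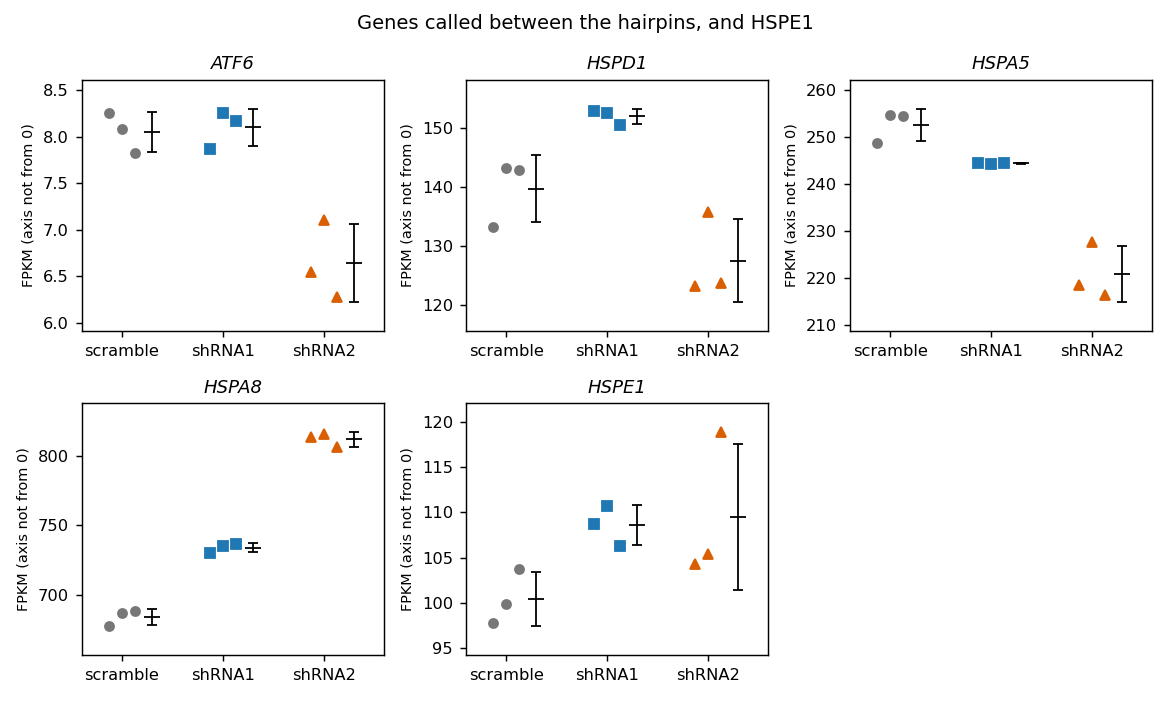
FPKM per library of the 4 genes called between shRNA2 and shRNA1, and of *HSPE1*, with the mean and SD of each group (n = 3) as a bar to the right of the points; axes do not start at 0. *HSPD1*, *ATF6* and *HSPA5* were lower with shRNA2 than with shRNA1 and *HSPA8* was higher, whereas the *HSPE1* libraries of both shRNAs overlapped.

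The ER genes and the cytosolic and mitochondrial genes leaned to opposite sides. Of the 20 ER genes tested, 13 were lower and 7 higher in knockdown cells, with a median log2 difference of −0.039. Of the 14 others, 9 were higher and 5 lower, with a median of 0.065, and the median of all genes tested was 0.027. Summed over the 22 ER genes, scramble libraries held 2324, 2290.0 and 2308 FPKM and knockdown libraries 2248 to 2279, all lower. Summed over the 14 others, scramble libraries held 3438, 3459 and 3488 FPKM and knockdown libraries 3565 to 3691, all higher. These sums rest on a few abundant genes. In the ER sum the largest differences between the scramble and knockdown means were those of *HSPA5* (253 and 233 FPKM) and *HSP90B1* (189 and 173). In the sum of the others they were those of *HSPA8* (684 and 773 FPKM) and *HSP90AB1* (1002 and 1054). No test was run on the medians or the sums. All knockdown libraries lay on one side of all scramble libraries in 14 of the 34 genes (41.2%), 8 above and 6 below, where 25.9% of all genes did (16.4% above and 9.46% below). The 6 below were ER genes, *HSPA5*, *HSP90B1*, *PDIA4*, *HYOU1*, *SYVN1* and *EDEM1*, and the 8 above were *DNAJB11*, *XBP1*, *HERPUD1*, *HSPA8*, *HSP90AA1*, *HSP90AB1*, *DNAJB1* and *HSPE1*.

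Transcript length moved with the changes over all genes. The longer the transcript, the lower the change in knockdown cells (Spearman's rho −0.43 across 12295 genes, which are not independent replicates). The ER genes tested had a median length of 2880.5 bases and the others of 2473, against 2626 for all genes. With the length trend removed, the medians were −0.061 for ER genes and 0.015 for the others, with a median of 0.001 for all genes, and 8 of the 34 genes were called, 2 higher and 6 lower, where 12.8% of all genes were called. With the GC trend removed 9 were called, 2 higher and 7 lower, against 25.1% of all genes. Under quantile normalization 10 were called, 1 higher and 9 lower, against 17.8% of all genes. The share of the 34 was thus above that of all genes with the length trend removed and under quantile normalization. It was close to that of all genes with the GC trend removed, and slightly below it without these scalings. The median of the cytosolic and mitochondrial genes under quantile normalization was −0.046, and that of the ER genes −0.097. The median of the ER genes was thus below that of the others under each of these scalings, whereas the sign of the latter depended on the scaling.

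Of 10 genes of the PERK and ATF4 branch, 10 were higher in knockdown cells and 7 passed the test, against 14.4% of all genes that rose, with a median log2 difference of 0.18. *ATF3*, a transcription factor, was at 9.55, 9.60 and 9.43 FPKM in scramble cells and 11.6 to 12.8 in knockdown cells (0.33 ± 0.032, adjusted p = 0.000705 by limma). *PPP1R15A*, which codes for GADD34 and directs removal of the phosphate that PERK places on eIF2α, rose by 0.34 ± 0.059 (adjusted p = 0.00548). *DDIT3*, which codes for CHOP, rose by 0.32 ± 0.072 (adjusted p = 0.0153). Both were higher with shRNA1 than with shRNA2, *DDIT3* at 39.0 to 41.5 against 33.4 to 34.9 FPKM (shRNA2 minus shRNA1 −0.23, adjusted p = 0.00369) and *PPP1R15A* at 41.0 to 41.4 against 35.1 to 36.8 (−0.18, adjusted p = 0.0112). With the length trend removed, which left 12.8% of all genes called, 4 of the 10 genes were called. Without a scramble library 5 were called, where 9.77% to 13.4% of all genes were. *EIF2AK3*, which codes for PERK itself and was named after its values were seen, was at 0.017 (adjusted p = 0.818). Kinases other than PERK also act on ATF4, for example when amino acids are short, and these inputs cannot be told apart here.

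Of 11 further ER folding and glycosylation genes tested, 7 were higher and 4 lower. Of these, 1 passed (9.09%, against 21.6% of all genes), *GANAB*, a glucosidase that trims glycans for the calnexin cycle (−0.10, adjusted p = 0.0403). Of 12 further ERAD genes, 4 were higher and 8 lower, and 2 passed (16.7%). *DERL2*, part of the retrotranslocation channel, rose by 0.14 (adjusted p = 0.00908), and *VCP*, the ATPase that extracts ERAD clients, fell by 0.075 on the log2 scale (adjusted p = 0.0415). Of 12 genes of the translocon, through which proteins enter the ER, 1 passed (8.33%), *SSR2*, which rose by 0.15 (adjusted p = 0.00752). *SPCS2*, *SPCS1* and *SEC61A1*, subunits of signal peptidase and of the channel, did not pass in the pooled comparison but were lower with shRNA2 than with shRNA1, by −0.41 (adjusted p = 0.00306), −0.31 (adjusted p = 0.000972) and −0.20 (adjusted p = 0.00528). Between the shRNAs 3 of the 12 translocon genes were called (25%), all lower with shRNA2, against 7.02% of all genes (5.05% lower).

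All 14 genes of the chaperonin TRiC and of prefoldin, which fold actin and tubulin, were higher in knockdown cells, 11 of them past the test (78.6%), with a median of 0.17. Of all 12509 genes tested, 7278 were higher and 14.4% rose by the test, which is the background for the lists described next as well. *PFDN2* was at 153 to 159 FPKM in scramble cells and 181 to 204 in knockdown cells (0.27, adjusted p = 0.00255), *CCT2* at 130.3 to 137 and 156 to 171 (0.26, adjusted p = 0.00170), and *CCT6A* rose by 0.19 (adjusted p = 0.00633). With the length trend removed 8 of the 14 were called (12.8% of all genes), and under quantile normalization 3 (17.8% of all genes). Of 16 genes listed with the co-chaperones of Hsp90 and Hsp70, 13 were higher and 7 passed. The latter were led by *HSPA14*, itself of the Hsp70 family (0.18, adjusted p = 0.0243 by limma), *HSPBP1* (0.17, adjusted p = 0.00626) and *DNAJA2* (0.15, adjusted p = 0.0236). The count of 7 became 3 with the length trend removed, 2 under quantile normalization, and 3, 3 and 2 without scramble replicates 1, 2 and 3, fits in which 10.8%, 9.77% and 13.4% of all genes were called. Of 10 further mitochondrial chaperones and proteases, 9 were higher and 3 passed, *HTRA2* (0.18, adjusted p = 0.00827), *GRPEL1* (0.16, adjusted p = 0.0305) and *DNAJA3* (0.13, adjusted p = 0.0153). That count was 1 without scramble replicate 1 or 3, and 5 without shRNA2 replicate 2, a fit in which 26.8% of all genes were called. It was 3 with the length trend removed and 2 under quantile normalization. In each of the latter fits 1 of the genes called was lower, *LONP1*, a protease of the mitochondrial matrix named here after its values were seen (−0.086 and −0.11).

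Of 8 further heat shock factors and inducible genes, *HSPA6*, *HSPB8*, *CRYAB* and *HSF4* had means under 1 FPKM and were not tested. *HSF2*, which codes for another heat shock factor, rose by 0.21 (adjusted p = 0.0381 by limma), and *UBB*, which codes for polyubiquitin, by 0.17 (adjusted p = 0.0125). The scramble libraries of *HSF2* were at 5.71, 6.21 and 7.10 FPKM and overlapped the knockdown libraries at 6.94 to 7.83. *HSF2* passed the test in 13 of 23 alternatives and *UBB* in 19 of 23, and with the length trend removed neither was called. Of the further genes named above that passed the test in the pooled comparison, *ATF3*, *PPP1R15A*, *PFDN2*, *CCT2* and *HTRA2* passed it in 23 of 23 alternatives. The others passed it in 10 (*VCP*) to 22.

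**Figure D4:**
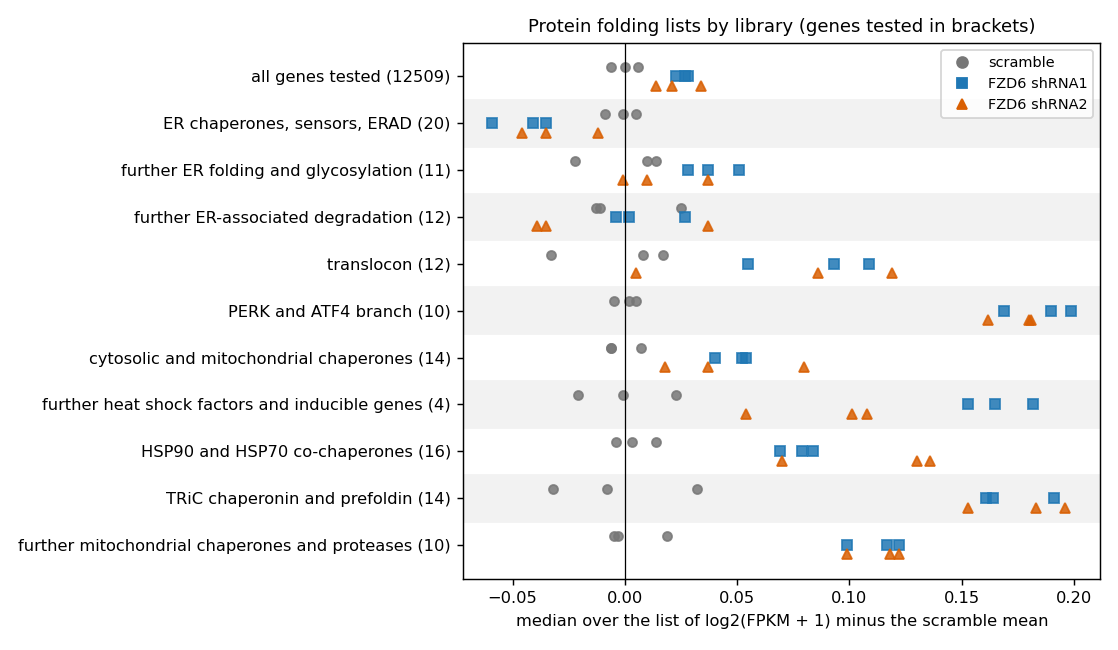
Each point is one library, as the median over the genes of a list of log2(FPKM + 1) minus the mean of the scramble libraries; the number of genes tested is in brackets. The knockdown libraries of the PERK and ATF4 branch and of TRiC with prefoldin lie between 0.153 and 0.199, and the ER chaperones, sensors and ERAD genes lie to the left of all genes tested.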

How the data were processed

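RNA-seq tables of 9 libraries were used, 3 each of DU145 cells expressing scrambled shRNA, *FZD6* shRNA1 or *FZD6* shRNA2, grouped by sample title. The authors made stranded mRNA libraries, aligned the reads by STAR, obtained FPKM from Cufflinks, and deposited these FPKM with confidence bounds per RefSeq transcript and locus. Versions are not given in the sources used here. Loci are those of hg38, which the submitters' processing notes name, although the methods name mm10.

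Of 73240 accessions, 72645 had a gene in a RefSeq table of GRCh38.p14, and FPKM were summed by gene. The 42 genes with an entry of failed status were left out. The 12509 genes averaging 1 FPKM or more were tested as log2(FPKM + 1) by limma 3.58.1 in R 4.3.3 with an intensity trend, Benjamini-Hochberg adjustment and a threshold of 0.05. Knockdown (6) was compared with scramble (3), and the shRNAs with scramble and with each other in a 3-group model. Length and GC of GENCODE v29 transcripts covered 98.3% of tested genes, and their trends were removed by lowess (span 0.3). The scripts were tested on simulated data. FPKM do not give counts. Depth was estimated from the bounds of 2263 genes with 1 entry, and 3 libraries per group limit the precision.

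The members, lists and tests were chosen with earlier results of these data known. Genes called between knockdown and scramble or between shRNAs are given for each library, and of each further list at most the 3 called genes with the largest change per comparison are named, except some that are not reported here. Each result was recomputed with a pseudocount of 0.1 or 0.01, without the filter, with a minimum of 5 FPKM, with median centring, quantile normalization, length or GC trends removed, primary chromosomes only, protein-coding accessions only, a replicate block, each library left out in turn, no intensity trend and the study's criteria. Added after seeing the data were genes of failed status and a fit of the shRNA libraries alone.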

Additional observations from a re-analysis of the deposited data

Results flagged for a closer look

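In 6 of the 34 genes tested, 1 of the 6 knockdown libraries lay far from the other 5 (gap to the nearest library over the whole range above Dixon's critical value). The nominal rate of that rule is about 1 in 20, or 1.7 of 34. It assumes independent genes and libraries of a common level, whereas the 6 libraries hold both shRNAs. The share of all genes flagged was not computed, so whether the count is particular to these genes was not tested. In 5 of these it was replicate 2 of shRNA2. *DNAJB9* was at 4.47 FPKM there against 3.64 to 3.86 in the others, *DNAJC3* at 8.24 against 7.19 to 7.48, and *HSP90AA1* at 753 against 676 to 692. *HSPB1* was at 298 FPKM there against 345 to 366, and *HSF1* at 46.6 against 49.7 to 51.1. In *EDEM1* it was replicate 1 of shRNA1, at 3.34 FPKM against 2.85 to 3.01, and this library was the one nearest to scramble. None of the 5 genes of shRNA2 replicate 2 passed the test in the pooled comparison with or without it.

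The shRNAs differed by limma's test of the difference in 4 genes. The log2 difference, shRNA2 minus shRNA1, was −0.15 in *HSPA5*, −0.25 in *ATF6*, 0.15 in *HSPA8* and −0.25 in *HSPD1*. *FZD6* itself was lower with shRNA2, at −0.25 (adjusted p = 0.0213), and its part in these differences was not tested.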

How the results depend on the processing

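The fall of *FZD6* passed the test in 23 of 23 alternatives. The number of genes called between knockdown and scramble, 7, was 4 with no filter on low values, where 10.3% of all genes were called. It was 1 under the study's criteria (3.33% of all genes), and 2 to 7 when each library was left out in turn (9.77% to 26.8%). Against scramble, the 8 genes called with shRNA1 became 5 with no filter (9.21% of all genes) and 13 with the GC trend removed (26%). They became 0 under the study's criteria (3.9%), and 3 to 12 leaving out a library (9.51% to 29.5%). The 10 called with shRNA2 became 1 under the study's criteria (6.32%), and 8 to 13 leaving out a library (17.8% to 33.7%). The 4 genes called between shRNAs became 1 under quantile normalization (7.48% of all genes) and 0 under the study's criteria (2.85%). Leaving out a library, they were 1 to 5 (2.99% to 10.3% of all genes). The counts of 0 depend on the log2(FPKM + 1) scale, as given above for *EDEM1* with shRNA1 and *ATF6* between shRNAs. Beside these counts of 0, limma gave 13 and 8 genes at an unadjusted p under 0.05 in the same comparisons. The share of all genes at that threshold was not computed, so these counts cannot be set against a background. The median of the ER genes was −0.097 under quantile normalization, −0.061 with the length trend removed, with or without the block, and −0.069 with the GC trend removed (−0.064 to −0.031 leaving out a library). That of the cytosolic and mitochondrial genes was −0.046, 0.015 and 0.028 (0.038 to 0.070 leaving out a library). Quantile normalization also turned *HSP90AB1* to −0.058 in the pooled comparison and −0.050 with shRNA2, *HSPA8* with shRNA1 to −0.030, and *CALR*, which then passed the test, to −0.105 in the pooled comparison and −0.084 with shRNA2. The cause was not tested.

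Same-numbered libraries of different groups did not deviate together (r −0.071 to 0.111, against −0.123 to 0.184 for other pairs), so the numbers are not known to pair them. With the replicate block 6 genes were called, 2 higher and 4 lower, against 7 without it, and 2553 of all genes against 2703. *HSPA8* (adjusted p = 0.0522) and *HSP90AB1* (adjusted p = 0.0654) were no longer called, and *CRELD2* (−0.14, adjusted p = 0.0382) was called in addition. The 3 libraries per group limit the size of change that can be called.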

Other observations

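Of the further genes, several involved in entry into the ER and in ERAD differed between the shRNAs without passing the test in the pooled comparison. *SPCS2*, a subunit of signal peptidase, was at 36.4, 34.2 and 35.7 FPKM in scramble cells, at 37.1, 38.8 and 37.7 with shRNA1 and at 25.9, 29.3 and 29.4 with shRNA2. *SPCS1*, its partner subunit, was at 22.03, 22.9 and 23.5 FPKM in scramble cells, 26.0, 25.3 and 25.8 with shRNA1 and 20.6, 20.3 and 21.1 with shRNA2. In both genes the shRNA2 libraries lay below the other 6, and *SPCS1* was above scramble with shRNA1. The differences passed the test in 24 of 24 alternatives each, with adjusted p of at most 0.0265 and 0.00845 by limma. *SPCS3*, another subunit, named here after its values were seen, went the other way. It was at means of 8.09 FPKM with shRNA1 and 9.06 with shRNA2, without overlap (0.15, adjusted p = 0.0716 by limma).

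Of the 12 further ERAD genes, 3 were called between the shRNAs (25%, against 7.02% of all genes), 1 higher and 2 lower with shRNA2. *MAN1B1*, an ER mannosidase, had a log2 difference of shRNA2 from shRNA1 of −0.15 (adjusted p = 0.00607 by limma), whereas *UBE2G2*, a ubiquitin-conjugating enzyme of ERAD, was at 0.18 (adjusted p = 0.0154). The prefoldin subunit *PFDN1* was lower by −0.24 (adjusted p = 0.00402), at 52.9 to 56.6 FPKM with shRNA1 and 45.7 to 46.3 with shRNA2. It was the only gene of TRiC and prefoldin that differed between the shRNAs (7.14% of 14 genes, against 7.02% of all genes). *GRPEL1*, the nucleotide exchange factor of mitochondrial Hsp70, was higher with shRNA2 by 0.13 (adjusted p = 0.0127), in the opposite direction to *HSPD1*.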
